A study of Homo sapiens with 6 samples.

Results

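The 10 genes described here encode coat proteins of the lipid droplet and enzymes that make or break down triglyceride: the perilipins PLIN2, PLIN3 and PLIN5, the CIDE proteins CIDEB and CIDEC, the acyltransferases DGAT1 and DGAT2, the lipases PNPLA2 and LIPE, and the lipase inhibitor HILPDA. They were found by symbol in a table of 78304 genes, in which each symbol had 1 row. The libraries are poly(A) RNA sequencing of Huh7, a human hepatoma cell line in long use, labelled wild type. After seeding, 3 libraries came from cells given the vehicle DMSO for 24 h and 3 from cells given 16'-DEC, a compound known here only by this code, for the same 24 h. By its title, the study concerns autophagy induced by the compound and its bearing on treatment of liver cancer. The labels give neither a dose nor the origin of the replicates, so a p-value here reflects the scatter of 6 libraries, which may be technical.

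A lipid droplet is a core of triglyceride and sterol ester inside a single layer of phospholipid, to which coat proteins bind. Perilipins cover the surface and limit the access of lipases, CIDE proteins promote the transfer of lipid between droplets in contact, DGAT enzymes add the last acyl chain of triglyceride, and PNPLA2 removes the first. Hepatocytes use this store both for energy and as a source of lipid for secreted lipoproteins.

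Levels are given in TPM, a share of all transcripts after correction for their length, so levels of different genes can be set side by side. TPM sum to the same total in every library and carry no read depth, so no counting error can be given for a low value. In DMSO 14936 to 15118 genes reached 1 TPM, and with 16'-DEC 13131 to 13459 did. All 10 hepatocyte or hepatoma markers, among them ALB, APOB and HNF4A, had a mean of at least 1 TPM, and their summed level was 21685 to 22439 TPM in DMSO and 24610 to 25454 TPM with 16'-DEC. Single markers went both ways: APOA2 rose from 7692 to 12700 TPM on average, while AFP fell from 2721 to 965 TPM, APOB from 627 to 196 TPM and FGB from 359 to 148 TPM. Of 5 adipocyte markers 0 reached a mean of 1 TPM (sum at most 0.314 TPM), with LEP and FABP4 listed at 0 in all libraries, and of 4 endothelial markers 0 did. The immune list was at 1652 to 1825 TPM in DMSO and 872 to 992 TPM with 16'-DEC, nearly all of it LYZ (means of 1719 and 874 TPM), while CD68 rose from 16.8 to 40.7 TPM (adjusted p = 7.13e-06, limma), PTPRC had means of 0.43 and 0.02 TPM and CD3E was at 0. Of 5 fibroblast or stellate markers ACTA2 alone reached a mean of 1 TPM, DCN was at 0, and the sum was 12.5 to 18.0 TPM in DMSO and 11.3 to 11.8 TPM with 16'-DEC. The part of these lists in the results was not tested. In bulk RNA, fewer cells of a type and less RNA per cell cannot be told apart.

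Both CIDE genes and the 2 abundant perilipins rose with 16'-DEC, as did PNPLA2 and its inhibitor HILPDA, while neither DGAT gene did. Of the 10 genes 8 had a mean of at least 1 TPM and were tested, and these 8 were above 1 TPM in every library; PLIN5 and LIPE were under the filter. The test was limma on log2(TPM + 1) over 14275 genes, with adjusted p-values over all of them and a threshold of 0.05. PLIN2, PLIN3, CIDEB, CIDEC, PNPLA2 and HILPDA rose, DGAT1 fell, and DGAT2 did not pass. Among all tested genes 71.5% were called, 22.7% higher and 48.9% lower, so a call was common in this comparison. The libraries of both groups did not overlap for 7 of the 8 genes, 5 of them higher, where 75.3% of all tested genes did not overlap and 24.3% were higher without overlap. PLIN2, PLIN3 and CIDEC were higher by at least 1 on the log2 scale, which 2.63% of tested genes were. The median change of the 8 genes was 0.72, against -0.31 over all tested genes. As the genes were chosen with earlier results of these data known, these counts are a description and no test of the set.

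**Figure D1:**
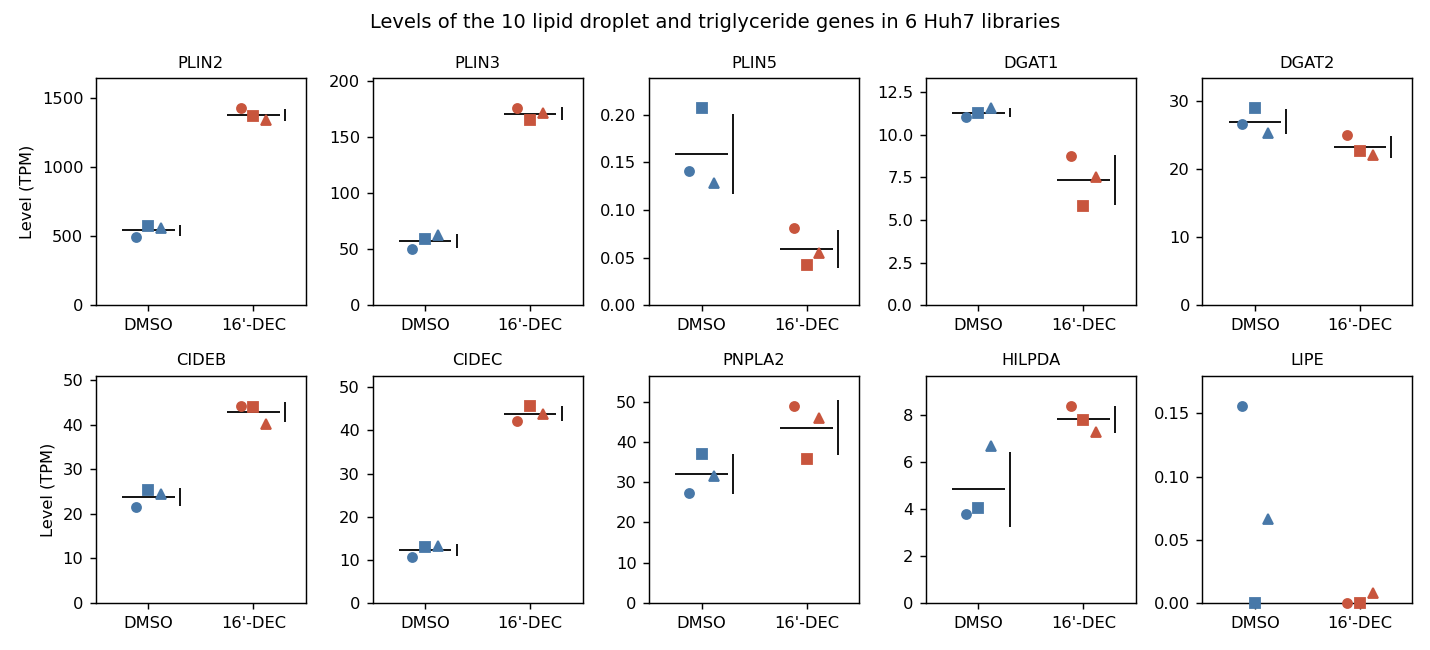
Level in TPM (y axis, linear from 0, 1 scale per gene) of the 10 genes in 3 DMSO (blue) and 3 16'-DEC (red) libraries. Points are libraries (circle, square and triangle for replicates 1, 2 and 3), horizontal lines the mean and vertical lines ± 1 SD, left out for LIPE, which is listed at 0 in 3 libraries. The 3 treated libraries lie above all DMSO libraries for PLIN2, PLIN3, CIDEB, CIDEC and HILPDA, below them for PLIN5, DGAT1 and DGAT2, and overlap them for PNPLA2 and LIPE.

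The sequences before the start sites of PLIN2, PLIN3 and CIDEC are shown because these 3 genes had the largest increases among the 10. They are from RefSeq on GRCh38.p14, which matched 7 of the 10 genes with 10 entries; DGAT1, DGAT2 and HILPDA had no entry. Each entry gave 250 bases before 1 annotated start, and bases that GENCODE 29 places in an untranslated region are left off, so the PLIN2 stretch is 166 bases (chr9:19127577-19127742, minus strand), the PLIN3 stretch 149 bases (chr19:4867769-4867917, minus strand) and the CIDEC stretch 249 bases (chr3:9880255-9880503, minus strand, the first of 2 entries). Capitals mark ACGTG, a form of the core of the hypoxia response element. The form GCGTG, which the PLIN3 stretch holds, was not searched for or counted.
PLIN2: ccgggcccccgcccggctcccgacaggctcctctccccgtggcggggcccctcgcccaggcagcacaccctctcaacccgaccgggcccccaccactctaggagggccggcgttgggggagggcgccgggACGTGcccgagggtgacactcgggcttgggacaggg
PLIN3: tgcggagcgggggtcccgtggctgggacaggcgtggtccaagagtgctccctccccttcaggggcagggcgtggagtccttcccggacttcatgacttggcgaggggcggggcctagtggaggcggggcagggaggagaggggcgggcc
CIDEC: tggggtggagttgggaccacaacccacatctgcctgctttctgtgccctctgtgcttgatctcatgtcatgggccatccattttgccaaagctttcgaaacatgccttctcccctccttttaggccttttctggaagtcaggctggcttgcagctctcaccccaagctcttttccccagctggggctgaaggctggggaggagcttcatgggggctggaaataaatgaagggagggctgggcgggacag
On both strands, ACGTG occurred 3 times in the 250 bases of PLIN2, first 120 bases before the start and then, overlapping on opposite strands, 69 and 68 bases before it, inside the part left off. It occurred 0 times in the other 9 entries of these genes, and 18.5% of 35116 promoter windows of the same length held it. The receptor site AGGTCA repeated in the same direction with 1 base of any kind between, a form of the element bound by PPAR receptors, was in 0 of the 10 entries and in 0.0171% of all windows (6 of 35116). The windows of PLIN2, PLIN3 and CIDEC had GC contents of 78.0%, 70.8% and 56.4%. A match is a description of the letters and not a binding site.

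PLIN2, the perilipin present on droplets of most cells and the main coat protein of hepatocyte droplets, was the most abundant of the 10 genes in both groups (ENSG00000147872, chromosome 9, 19108375 to 19149290, 8 exons; GRCh38, GENCODE 29, as for all positions). It was at 495, 574 and 558 TPM in the DMSO libraries and at 1431, 1372 and 1343 TPM with 16'-DEC. The groups were far apart, with the lowest treated library above every DMSO library. The ratio of the group means was 2.55, and the change was 1.35 ± 0.0739 on the log2(TPM + 1) scale (± SE, 95% interval 1.18 to 1.52, adjusted p = 6.40e-07, limma). Over all genes of the table PLIN2 moved from rank 219 to rank 119 by mean level, and 99.3% of tested genes had a smaller change.

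PLIN3, a perilipin that is also found in the cytosol and moves to forming droplets, changed by a similar amount from a lower level (ENSG00000105355, chromosome 19, 4838341 to 4867768, 8 exons). Its levels were 50.4, 59.1 and 62.2 TPM in DMSO and 176, 165 and 172 TPM with 16'-DEC, with no overlap. The change was 1.57 ± 0.0896 (95% interval 1.36 to 1.77, adjusted p = 8.12e-07, limma), with 99.6% of tested genes below it, and the ratio of means was 2.98.

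PLIN5, the perilipin of oxidative tissues such as heart muscle, was close to absent (ENSG00000214456, chromosome 19, 4522531 to 4535224). It was listed at 0.141, 0.207 and 0.128 TPM in DMSO and at 0.081, 0.042 and 0.055 TPM with 16'-DEC. These values did not overlap, but PLIN5 was under the filter and had no test; with no filter its difference was -0.13 and did not pass (adjusted p = 0.0543, limma). Of its exonic bases 21.7% lie in AC011498.4 on the same strand (means of 0.0733 and 0.08 TPM). PLIN1 and PLIN4, the perilipins of fat cells, were also under the filter, with means of 0.127 and 0.269 TPM in DMSO and of 0.024 and 0.259 TPM with 16'-DEC.

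The summed level of the 3 perilipins was 599.6 ± 47.0 TPM in DMSO and 1553 ± 47.8 TPM with 16'-DEC (mean ± SD, 3 libraries a group, as for all levels given so; exact permutation p = 0.1, 2-sided, the smallest that 3 against 3 can give). PLIN2 made up 90.4% ± 0.434 of this sum in DMSO and 89.0% ± 0.304 with 16'-DEC. Most perilipin transcript was therefore PLIN2 in every library, and nearly all of the rest was PLIN3.

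CIDEC, which enlarges droplets at their contact sites and is abundant in fat cells and fatty liver, had the largest change of the 10 genes (ENSG00000187288, chromosome 3, 9866711 to 9880254, 6 exons). It was at 10.6, 12.9 and 13.1 TPM in DMSO and at 42.2, 45.7 and 43.8 TPM with 16'-DEC. No library of 1 group reached the range of the other. The change was 1.77 ± 0.0968 (95% interval 1.55 to 1.99, adjusted p = 6.39e-07, limma), a ratio of means of 3.60, and 99.8% of tested genes had a smaller change. The adipocyte genes ADIPOQ, LEP, PLIN1, FABP4 and CIDEA, which encodes the third CIDE protein, had means under 1 TPM in these libraries.

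CIDEB, the CIDE protein of liver, which acts in droplet fusion and in loading lipid onto very low density lipoprotein, also rose (ENSG00000136305, chromosome 14, 24305096 to 24311430). Its levels were 21.6, 25.5 and 24.5 TPM in DMSO and 44.3, 43.9 and 40.3 TPM with 16'-DEC, with no overlap, and the change was 0.82 ± 0.0884 (95% interval 0.62 to 1.02, adjusted p = 3.76e-05, limma). After adjustment for GC content and transcript length it was 0.53. Of the exonic bases of CIDEB 61.1% are shared with NOP9 and 39.9% with LTB4R2, both on the opposite strand. NOP9 was at means of 18.9 and 28.1 TPM and LTB4R2 at 1.59 and 1.11 TPM in DMSO and 16'-DEC; as no use of strand is stated, reads of CIDEB and these genes cannot be told apart in the shared bases.

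DGAT1 and DGAT2 are unrelated enzymes of the endoplasmic reticulum that catalyse the same reaction, the addition of a fatty acid to diacylglycerol. DGAT1 (ENSG00000185000, chromosome 8) was at 11.022, 11.278 and 11.555 TPM in DMSO and at 8.73, 5.81 and 7.53 TPM with 16'-DEC. All treated libraries lay below all DMSO libraries, and the treated ones were the more spread out. The change was -0.57 ± 0.131 (95% interval -0.87 to -0.27, adjusted p = 0.00379, limma). The call did not hold with median-of-ratios scaling (-0.25, adjusted p = 0.123) or quantile normalization (-0.08, adjusted p = 0.59). Of its exonic bases 3.36% are shared with HSF1 on the opposite strand (means of 33.5 and 55.4 TPM) and 10.7% with the non-coding AC233992.1 on the same strand (0.595 and 0.134 TPM).

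DGAT2 (ENSG00000062282, chromosome 11, 75759512 to 75801535, 8 exons) was at 26.5, 28.9 and 25.3 TPM in DMSO and at 24.998, 22.557 and 21.997 TPM with 16'-DEC. The treated libraries were lower by a small margin, and the change of -0.21 ± 0.0884 did not pass (95% interval -0.41 to -0.00492, adjusted p = 0.0626, limma). Its direction depended on scaling: 0.13 with median-of-ratios scaling (adjusted p = 0.153), 0.19 with quantile normalization (adjusted p = 0.0612) and -0.40 after GC content and length adjustment, where it was called (adjusted p = 0.00126). It was also called when mitochondrially encoded genes were removed before scaling (-0.21, adjusted p = 0.0478). Together the DGAT genes summed to 38.2 ± 1.78 TPM in DMSO and 30.5 ± 2.82 TPM with 16'-DEC (exact permutation p = 0.1, the smallest possible).

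PNPLA2, adipose triglyceride lipase, which starts the breakdown of stored triglyceride, was higher by a small amount and less surely (ENSG00000177666, chromosome 11, 818902 to 825573, 10 exons). It was at 27.3, 37.1 and 31.5 TPM in DMSO and at 49.0, 35.9 and 45.9 TPM with 16'-DEC. The lowest treated library, replicate 2, was below the highest DMSO library, also replicate 2, so the groups overlapped. The change of 0.43 ± 0.142 passed (95% interval 0.11 to 0.76, adjusted p = 0.0217, limma). Leaving out the first or the third library of either group ended the call: 0.33 without DMSO replicate 1 (adjusted p = 0.0831), 0.43 without DMSO replicate 3 (adjusted p = 0.05004), 0.35 without treated replicate 1 (adjusted p = 0.0739) and 0.39 without treated replicate 3 (adjusted p = 0.0633). Nor did it pass after GC content and length adjustment (0.16, adjusted p = 0.225) or with no filter (adjusted p = 0.0873), while median-of-ratios scaling gave 0.78 and quantile normalization 0.74. A non-coding antisense gene, AP006621.1, shares 10.4% of its exonic bases (means of 0.544 and 0.286 TPM).

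HILPDA, a small droplet protein that inhibits PNPLA2 and is a known target of hypoxia-inducible factors, rose from a low level (ENSG00000135245, chromosome 7, 128455849 to 128458418, 2 exons). It was at 3.80, 4.05 and 6.68 TPM in DMSO and at 8.39, 7.77 and 7.27 TPM with 16'-DEC. DMSO replicate 3 was close to the treated libraries and apart from the other DMSO libraries. That library was also the highest for PTPRC, a leukocyte gene (1.167 TPM, against 0.061 and 0.059 TPM in the other DMSO libraries), and for CAV2 (1.967 TPM, against 0.057 and 0.076 TPM). Both were picked after their values were seen, and related genes did not set that library apart. Among DMSO libraries it was the lowest for LYZ (1633 TPM, against 1807 and 1716 TPM) and CD14 (0.582 TPM, against 0.690 and 0.623 TPM). CD68 was level (17.186 TPM, against 17.165 and 15.977 TPM), CD3E was at 0, and CAV1 was at 0.095 TPM, against 0.052 and 0.11 TPM. The change of HILPDA was 0.62 ± 0.174 (95% interval 0.23 to 1.02, adjusted p = 0.0104, limma). It passed in all 6 fits that left out 1 library (0.50 to 0.84), the largest value being that without DMSO replicate 3. It missed the threshold with no filter (adjusted p = 0.0539), was 0.39 with a pseudocount of 5 and 1.13 with quantile normalization. Of its exonic bases 8.99% lie in AC010655.2 and 8.45% in AC010655.4, both non-coding and on the same strand (means of 2.36 and 2.58 TPM in DMSO and of 1.54 and 2.66 TPM with 16'-DEC).

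LIPE, hormone-sensitive lipase, which hydrolyses diacylglycerol in fat cells, was listed at 0.156, 0 and 0.066 TPM in DMSO and at 0, 0 and 0.008 TPM with 16'-DEC (ENSG00000079435, chromosome 19, 42401507 to 42427426). It was under the filter, and no fold is given against libraries at 0. Of its exonic bases 9.60% are shared with the antisense gene LIPE-AS1, which was at means of 3.13 and 1.27 TPM. Of these 2 lipases only PNPLA2 was above the filter. Other lipases were present too, such as DDHD2, a triglyceride hydrolase, at means of 43.4 and 39.0 TPM, and PNPLA3, a droplet protein, at 9.90 and 11.4 TPM. Neither was called as deposited. After GC content and length adjustment DDHD2 was called higher (0.68, adjusted p = 3.58e-04, limma) and PNPLA3 was not called (0.08, adjusted p = 0.655, limma).

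In order of mean level, DMSO libraries had PLIN2, PLIN3, PNPLA2, DGAT2, CIDEB, CIDEC, DGAT1, HILPDA, PLIN5 and LIPE. The libraries overlapped between neighbours for PNPLA2 and DGAT2, DGAT2 and CIDEB, CIDEC and DGAT1, and PLIN5 and LIPE. With 16'-DEC the order was PLIN2, PLIN3, CIDEC, PNPLA2, CIDEB, DGAT2, HILPDA, DGAT1, PLIN5 and LIPE, with overlap between CIDEC and PNPLA2, PNPLA2 and CIDEB, and HILPDA and DGAT1. CIDEC thus moved from place 6 to place 3 and was level with PNPLA2 and CIDEB. The place of CIDEB is uncertain because of the exonic bases it shares with NOP9 and LTB4R2. All 10 genes together took 710.8 ± 56.2 TPM in DMSO and 1722 ± 54.9 TPM with 16'-DEC (exact permutation p = 0.1), of which PLIN2 was 76.3% ± 0.239 and 80.3% ± 0.458.

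Because TPM are relative, the direction of small changes depended on scaling. Lower genes were 68.3% of all calls as deposited. Median-of-ratios scaling brought this to 50.4% and raised the median gene by 0.29, and quantile normalization to 44.2% with a rise of 0.41. GC content and length adjustment gave 47.9% and a rise of 0.33. Relative to the median gene as deposited, CIDEC was higher by 2.08, PLIN3 by 1.87, PLIN2 by 1.66, CIDEB by 1.13, HILPDA by 0.93, PNPLA2 by 0.74 and DGAT2 by 0.10, and DGAT1 was at -0.26. PLIN2, PLIN3, CIDEB and CIDEC were called higher in all 17 alternative fits, from 1.13 to 1.70, 1.29 to 1.91, 0.53 to 1.17 and 1.51 to 2.15. HILPDA was called higher in 16 of them and PNPLA2 in 10, DGAT1 was called lower in 15 and DGAT2 in 3.

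**Figure D2:**
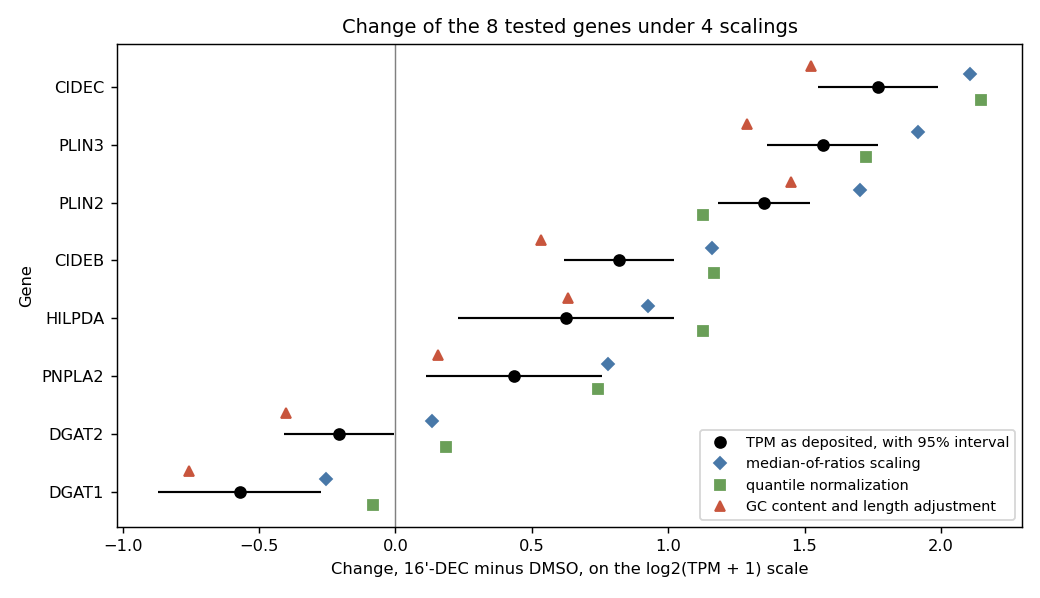
Change with 16'-DEC against DMSO (x axis, log2(TPM + 1) scale) of the 8 tested genes (y axis), as deposited (black, bars are 95% intervals from limma) and under 3 other scalings or adjustments (coloured points). PLIN2, PLIN3, CIDEB and CIDEC stay between 0.53 and 2.15 under these, while DGAT2 lies on both sides of 0.

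Changes across the transcriptome also followed base composition. As a description across 13291 genes, which do not replicate each other, the change and the GC content of the transcript had a Spearman's rho of 0.68. The GC contents were 48.9% for PLIN2, 51.0% for HILPDA, 56.1% for DGAT2, 57.2% for CIDEC, 58.4% for PLIN3, 59.3% for CIDEB, 63.2% for DGAT1 and 64.9% for PNPLA2, against a median of 48.8% over tested genes. After GC content and length adjustment PLIN2 was at 1.45, CIDEC at 1.52, PLIN3 at 1.29, HILPDA at 0.63 and DGAT1 at -0.76, all still called (adjusted p from 3.06e-06 to 0.00954, limma). That left 5 of the 8 genes higher and 2 lower, where 34.5% of all genes with a GC value were higher and 31.7% lower.

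**Figure D3:**
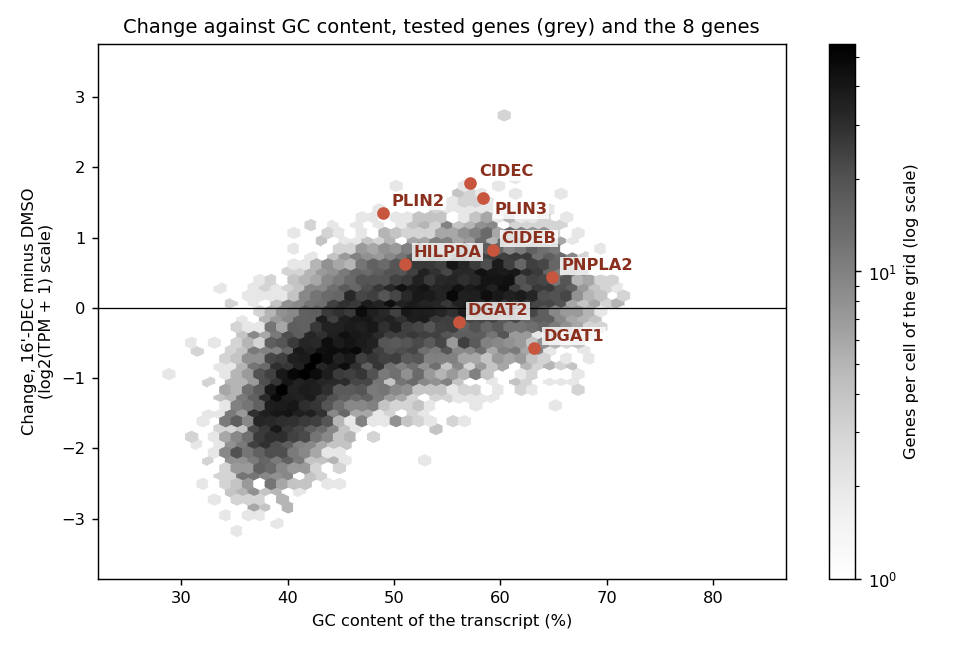
Change with 16'-DEC against DMSO (y axis, log2(TPM + 1) scale) against the GC content of the transcript (x axis, percent) for tested genes, as a density in grey on a log scale, with the 8 tested genes as red points. PLIN2, at a GC content of 48.9%, lies at the upper edge of the genes of like composition, and DGAT1, at 63.2%, lies toward the lower edge.

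A ratio of 2 genes within a library does not move when 1 factor scales that library, though it can under an adjustment by gene, so 5 such ratios were compared; the ratio of LIPE to PNPLA2 was left out because LIPE is listed at 0 in 3 libraries. The ratio of CIDEB to CIDEC was 2.03, 1.98 and 1.86 in DMSO and 1.05, 0.961 and 0.919 with 16'-DEC. By listed TPM, CIDEB was thus the more abundant of the pair in DMSO and about level with CIDEC after treatment. The level of CIDEB is uncertain, as its reads cannot be told apart from those of overlapping genes in shared bases. The ratio of PLIN2 to PLIN3 was 9.83, 9.71 and 8.96 in DMSO and 8.13, 8.32 and 7.83 with 16'-DEC, lower without overlap, but the direction depended on GC content and length adjustment, after which PLIN2 minus PLIN3 was 0.16 on the log2(TPM + 1) scale; quantile normalization gave -0.60. DGAT2 over DGAT1 was 2.41, 2.56 and 2.19 in DMSO and 2.86, 3.89 and 2.92 with 16'-DEC. These 3 ratios differed by -1.01, -0.23 and 0.42 on the log2 scale (exact permutation p = 0.1 each, 2-sided, the smallest possible; adjusted over 5 ratios 0.125). They separated the groups completely, but 3 against 3 cannot reach the threshold. After GC adjustment CIDEB minus CIDEC was -0.99 and DGAT2 minus DGAT1 was 0.35, and after quantile normalization they were -0.98 and 0.27. The ratio of PLIN5 to PLIN2 was at most 3.61e-04 in every library, so its difference of -2.79 rests on PLIN5 values near 0 (exact permutation p = 0.1, adjusted 0.125). HILPDA over PNPLA2 overlapped between the groups, at 0.139, 0.109 and 0.212 in DMSO and 0.171, 0.217 and 0.158 with 16'-DEC (exact permutation p = 0.4).

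**Figure D4:**
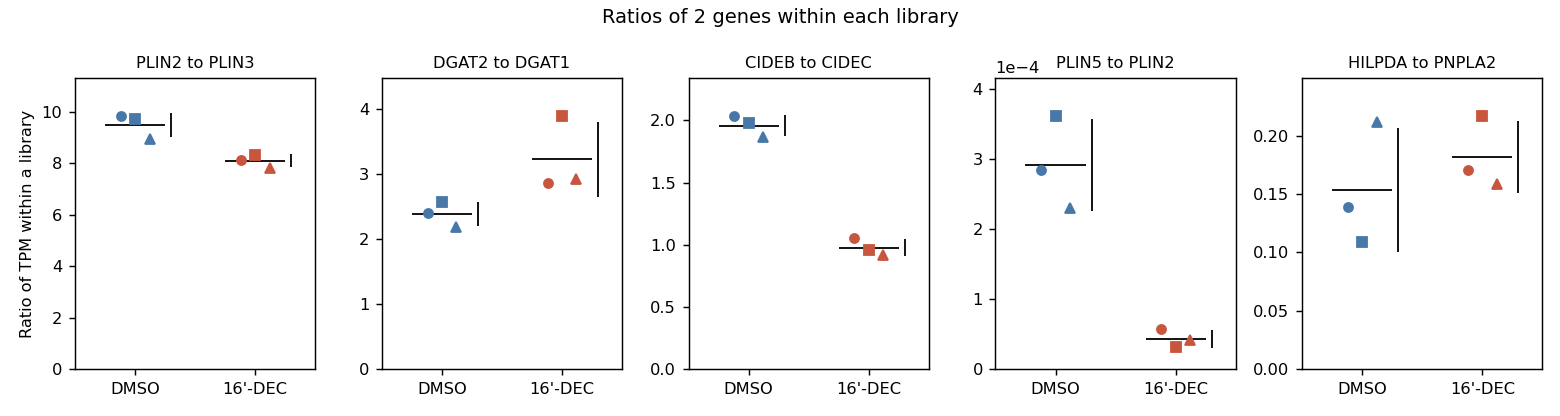
Ratio of the TPM of 2 genes within a library (y axis, linear from 0) for 5 pairs in 3 DMSO (blue) and 3 16'-DEC (red) libraries; points are libraries, horizontal lines means and vertical lines ± 1 SD. The ratio of CIDEB to CIDEC lies between 1.86 and 2.03 in DMSO and between 0.919 and 1.05 with 16'-DEC, while that of HILPDA to PNPLA2 overlaps.

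Related genes went both ways, as did all tested genes (22.7% higher and 48.9% lower, and 34.5% and 31.7% after GC adjustment). In a list of 27 genes of glycerolipid synthesis, which build the diacylglycerol that DGAT enzymes use, activate fatty acids or esterify sterols, 23 were tested, of which 7 (30.4%) rose, 10 (43.5%) fell and 6 did not pass (median -0.02 against -0.31 over all genes, smallest -2.29, largest 1.64). AGPAT2, which adds the second acyl chain, rose from 7.31 ± 1.28 to 24.8 ± 1.45 TPM (1.64 ± 0.124, adjusted p = 3.90e-06, limma). ACSL5, an acyl-CoA synthetase, rose from 182 ± 10.2 to 390 ± 22.8 TPM, and GPAT3 and GPAT4, which add the first chain, rose by 0.55 (GC-adjusted 1.16) and 0.60. GPAM, which also adds the first chain and was the more abundant in DMSO, fell from 159 ± 20.4 to 49.2 ± 14.2 TPM (-1.70, GC-adjusted -0.54). In the other direction ACSL4, an acyl-CoA synthetase that prefers polyunsaturated chains, fell from 384 ± 16.7 to 101 ± 2.87 TPM (-1.92 ± 0.0668, GC-adjusted -0.41). TMX1, a protein of the endoplasmic reticulum linked to TMEM68, fell by 2.29 (GC-adjusted -0.65) and LCLAT1, an acyltransferase of cardiolipin and phosphatidylinositol, by 1.68 (GC-adjusted -0.33). TMEM68, an acyltransferase that can make triglyceride without DGAT enzymes, fell from a mean of 35.999 to 12.154 TPM, but was at -0.00980 after GC adjustment and not called. After that adjustment 11 genes of the list were higher and 8 lower. With median-of-ratios scaling 12 were higher and 7 lower, and the list median was 0.33. Over all 14275 tested genes that scaling gave 5290 higher and 5376 lower, with a median of -0.01.

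In a list of 23 genes of lipolysis and its control, 19 were tested, of which 5 (26.3%) rose, 7 (36.8%) fell and 7 did not pass (median 0.09). ABHD5 (CGI-58), the coactivator of PNPLA2 that some perilipins hold at the droplet, rose from 8.44 ± 1.10 to 13.9 ± 0.475 TPM (0.67 ± 0.103, adjusted p = 3.73e-04, limma; GC-adjusted 2.16), and G0S2, an inhibitor of PNPLA2, was listed at means of 0.0167 and 0.013 TPM. ABHD12, a lipase of lysophosphatidylserine and monoacylglycerol, rose by 0.74 (GC-adjusted 0.42), PNPLA6, a lysophospholipase, by 0.67 and CES1, a hepatic carboxylesterase, by 0.60. UBXN4 and SPART, proteins linked to protein turnover at the endoplasmic reticulum and droplet, fell by 1.34 (GC-adjusted -0.17) and 1.22, PNPLA8, a phospholipase, by 1.32 and NCEH1, which hydrolyses cholesteryl ester, by 1.14. Of these NCEH1 was at -0.01 and PNPLA8 at 0.14 after GC adjustment, neither called, and SPART was called higher there (0.23, adjusted p = 0.0246). After that adjustment 11 were higher and 2 lower. With median-of-ratios scaling 11 were higher and 6 lower, where 5290 of all 14275 tested genes were higher and 5376 lower.

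In a list of 32 genes of droplet formation and surface, 25 were tested, of which 9 rose, 13 (52.0%) fell and 3 did not pass (median -0.23; 0.32 after GC adjustment, 0.12 with median-of-ratios scaling). CAVIN1, a caveolar coat protein, rose from 22.8 ± 3.07 to 62.4 ± 2.18 TPM (1.42 ± 0.102, adjusted p = 2.96e-06, limma), while CAV1 and CAV2, its caveolin partners, were under the filter. DHRS3, a retinal reductase found on droplets, rose by 1.04, AUP1, a droplet protein that recruits a ubiquitin-conjugating enzyme, by 0.88 (GC-adjusted 0.56) and TMT1B, a droplet methyltransferase, by 0.66. VPS13A and VPS13C, lipid transfer proteins at membrane contacts, fell from 49.7 ± 2.02 to 5.96 ± 0.45 TPM and from 27.8 ± 1.26 to 4.15 ± 0.0454 TPM (-2.87 and -2.48, GC-adjusted -1.29 and -1.07). RAB18, a droplet GTPase, fell by 1.45 and SNX14, a contact site protein, by 1.19, but after GC adjustment neither was called (0.08 and 0.14). After that adjustment 14 of the list were higher and 3 lower, beside the shift of all genes from 48.9% to 31.7% lower.

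In a list of 22 transcription factors and cofactors known to act on genes of this group, 21 were tested, of which 8 (38.1%) rose, 6 (28.6%) fell and 7 did not pass (median 0.20; 0.01 after GC adjustment, 0.54 with median-of-ratios scaling). CREB3L3, a hepatic factor of lipid metabolism, rose from 8.40 ± 0.0203 to 16.6 ± 1.76 TPM (0.90 ± 0.0975, adjusted p = 3.98e-05, limma). RXRB, a partner of PPAR receptors, rose by 0.47 (GC-adjusted 0.25), ATF4, a stress factor, by 0.46 (GC-adjusted 0.22) and CEBPB by 0.41, but CEBPB was not called after GC adjustment (0.13, adjusted p = 0.0652). Of the PPAR receptors, PPARG rose by 0.27 (GC-adjusted 0.85) and PPARD by 0.43 (GC-adjusted 0.27). PPARA was not called as deposited (0.34) but was called higher after GC adjustment (0.75). HIF1A, a hypoxia factor subunit, fell from 187 ± 8.89 to 51.9 ± 5.80 TPM (-1.83 ± 0.0937, adjusted p = 4.59e-07, limma, GC-adjusted -0.52), in the same libraries in which HILPDA rose. EPAS1, another such subunit, fell less, from 128 ± 9.73 to 106 ± 8.63 TPM (-0.26, GC-adjusted -0.15 and not called). ARNT, their partner, was not called as deposited (15.8 ± 0.998 and 21.0 ± 5.15 TPM) but was called higher after GC adjustment (0.77). The bearing of these genes on HILPDA was not tested. NR1H4, the bile acid receptor FXR, fell by 2.01 (GC-adjusted -0.92), PPARGC1A, a coactivator of PPAR receptors, by 1.93 (GC-adjusted -0.71) and FOXO1, which promotes PNPLA2 transcription in other cells, by 1.06 (GC-adjusted -0.58). With median-of-ratios scaling 15 of the list were higher and 5 lower, where 5290 of all 14275 tested genes were higher and 5376 lower. After GC adjustment 8 were higher and 7 lower, beside 34.5% and 31.7% of all genes.

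**Figure D5:**
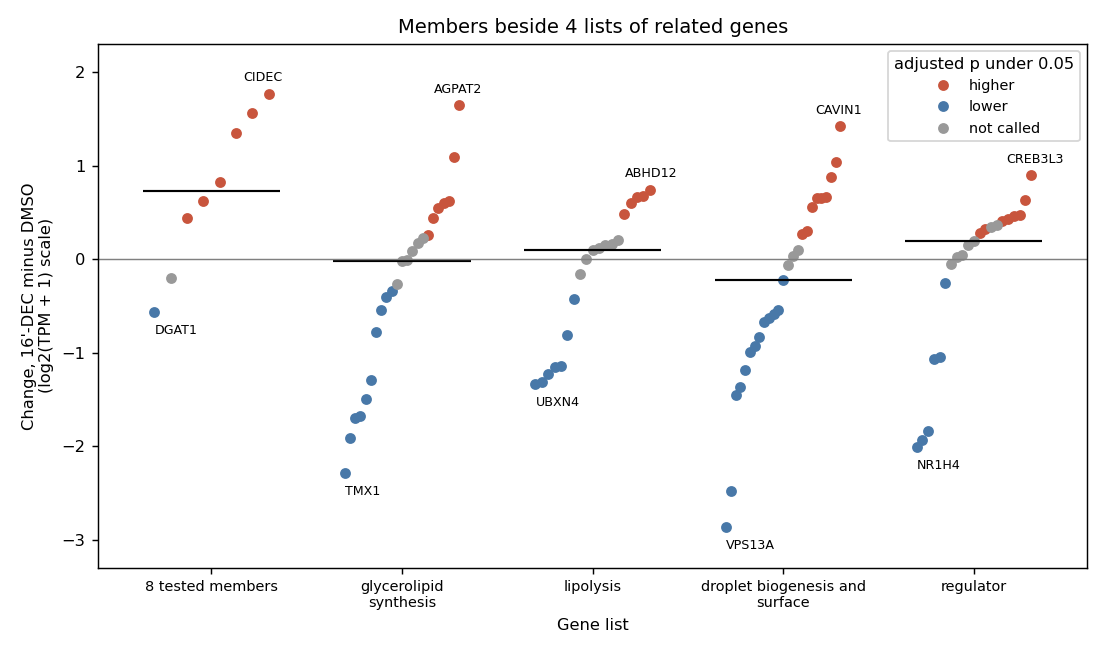
Change with 16'-DEC against DMSO (y axis, log2(TPM + 1) scale) of the 8 tested genes and of the tested genes of 4 related lists (x axis), each point a gene in order of its change; red was called higher, blue lower and grey not called (adjusted p, limma), and black lines are medians. The 8 genes have a median of 0.72 and the lists medians between -0.23 and 0.20.

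The genes whose profile over the 6 libraries was most like that of PLIN2 were CTSB, SQSTM1 and SSR2, at Euclidean distances of 0.0450, 0.0697 and 0.0982 between centred log2(TPM + 1) values, among 10191 genes with a symbol and a mean of at least 5 TPM. CTSB encodes the lysosomal protease cathepsin B, SQSTM1 the autophagy receptor p62 and SSR2 a subunit of the translocon-associated complex. CTSB was also alike in level, at 542 ± 48.9 TPM in DMSO and 1373 ± 37.9 TPM with 16'-DEC. For CIDEC the nearest were DUSP1, HSPA1A and IL21R, at distances of 0.116, 0.128 and 0.165, with changes of 1.84, 1.78 and 1.77; HSPA1A has a near-identical copy, HSPA1B, so its level is uncertain. With 2 groups of 3, such likeness is mostly that of the difference between the groups.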

How the data were processed

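Poly(A) RNA of Huh7 cells was sequenced in 6 libraries, grouped by their titles. The authors deposited 1 table of TPM values for 78304 genes; per the submitters' processing notes, HISAT2 2.0.1, HTSeq 0.6.1, cutadapt 1.9.1 and DESeq2 were used on the build GRCh38, with no role or order stated. The annotation, the lengths used and the use of strand: not given in the sources used here. As TPM are shares, they carry no depth, and each gene's value depends on all others.

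The 14275 genes whose mean reached 1 TPM were fitted on log2(TPM + 1), a scale that understates changes of low genes, with limma 3.58.1 in R 4.3.3 (mean trend, 2-sided), Benjamini-Hochberg adjustment over all of them and a threshold of 0.05; the fit was tested on simulated data. GC content and length came from GENCODE 29 (1 transcript per gene; 93.1% of tested genes), and their adjustment removed natural splines with 5 degrees of freedom from each library, which also re-centres it. Overlaps of exons are from the same annotation. In each related list up to 4 genes of smallest adjusted p in each direction were named. For the most abundant and most changed gene, the 3 nearest profiles were named. Genes named beyond these were chosen after their values were seen. Among them are PLIN1, PLIN4, G0S2, DDHD2, PNPLA3, GPAM, AGPAT1, AGPAT3, AGPAT5, the PPAR receptors, EPAS1, ARNT, single cell type markers, CAV1, CAV2 and the overlapping genes. The genes and lists were chosen with earlier results of these data known. Ratios and sums were compared by exact permutation. Alternatives were pseudocounts of 0.1 and 5, other filters and scalings, no trend, a threshold of 0.01, the replicate number as a block, and leaving out each library; GC adjustment and quantile normalization of the ratios were added after seeing the data. Figures used matplotlib 3.10.9.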

Additional observations from a re-analysis of the deposited data

How the results depend on the processing

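Over all genes, 3236 higher and 6974 lower became 5290 and 5376 with median-of-ratios scaling, and quantile normalization gave 5990 and 4748; after GC content and length adjustment 4590 were higher and 4213 lower, and 3981 lower with the replicate block beside it. Of the 10 genes, 1 was called lower as deposited, 0 with either of these scalings, and 2 without mitochondrially encoded genes, after GC adjustment and with the block beside it. Counts of higher genes among the 10 ran from 4 (no filter, or a threshold of 0.01) to 6. Higher counts of the related lists moved as follows. Glycerolipid synthesis went from 7 to 12 with median-of-ratios scaling and to 11 after quantile normalization, GC adjustment, or GC adjustment with the block. Lipolysis went from 5 to 11 under the same 4. Droplet formation and surface went from 9 to 14 after GC adjustment, and the regulators from 8 to 15 with either scaling. Lower counts went from 7 to 2 for lipolysis and from 13 to 3 for droplet formation and surface after GC adjustment, with or without the block. DGAT2 turned from -0.21 to 0.13 (median-of-ratios) and 0.19 (quantile normalization); PNPLA8, SPART, RAB18 and SNX14 turned to 0.14, 0.23, 0.0753 and 0.14 after GC adjustment, with or without the block. The cause was not tested. These scalings centre or equalise the libraries by construction.

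Same-numbered libraries did not deviate together (correlations of their deviations 0.0941, -0.182 and -0.0726), so no pairing by number was visible. Deviations within such small groups cannot settle whether libraries were paired, and the labels do not give the origin of the replicates. With the replicate block alone 3014 genes were higher and 6823 lower, and the 10 genes kept 6 higher and 1 lower calls. Leaving out 1 library gave 2764 to 3419 higher and 6556 to 6867 lower over all genes and 5 or 6 higher and 1 lower among the 10. The differences of the 5 ratios kept their sign without each library and with a pseudocount of 1. After GC adjustment, chosen for the ratios after seeing the data, PLIN2 to PLIN3 turned from -0.23 to 0.16; the 3 others that could be fitted, all but PLIN5 to PLIN2, kept their sign there, and these 4 did so with quantile normalization. With no depth in TPM, the values of PLIN5 and LIPE have no counting error.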
